A study of Mus musculus with 3 samples.

Results

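Haem breakdown and iron handling were followed through 10 genes of the 32285 in the count matrices, chosen by function and by symbol: the haem oxygenases Hmox1 and Hmox2, the biliverdin reductases Blvra and Blvrb, the ferritin chains Fth1 and Ftl1, the iron exporter Slc40a1, the transferrin receptor Tfrc, the haem transporter Slc48a1 and the haemoglobin scavenger receptor Cd163. All 10 were found in each library. They were measured by single-cell RNA-seq, with 3′ transcript ends tagged in droplets, in full-thickness dorsal skin from wild type C57BL/6J mice that entered the study at 8 weeks of age, with 1 library per condition. CON skin was not irradiated, UV skin was exposed on alternate days over 12 weeks to a mixture of UVA and UVB (0.60 and 3.5 mW/cm2), and Rux skin received the same irradiation followed each time by a 1.5% ointment of ruxolitinib, an inhibitor of the kinases JAK1 and JAK2. Skin was taken 24 hours after the last exposure. The study's group scheme lists vehicle, the ointment base without the drug, for CON and UV. The labels do not give the number of mice in a library, so animal and treatment cannot be told apart within a condition.

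Haem oxygenases open the haem ring and release iron, carbon monoxide and biliverdin, which biliverdin reductases turn into bilirubin. The freed iron is stored in ferritin or leaves the cell through ferroportin, the product of Slc40a1, while transferrin-bound iron enters through the receptor encoded by Tfrc. Hmox1 is the inducible haem oxygenase and is known in skin as a response to UVA and to oxidative stress, whereas Hmox2 is made constitutively. Macrophages that clear red cells are known to use much of this pathway.

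After filtering, 10777 cells of CON, 10231 of UV and 9299 of Rux were kept, with median depths of 7549, 7669 and 9438 unique molecular identifiers (UMIs, molecular tags that each mark 1 captured transcript). The mice are labelled female, yet over all kept cells the Y-linked gene Ddx3y stood at 110, 115 and 121 counts per 1000000 UMIs (CPM) in CON, UV and Rux, and Xist, which marks the inactive X, gave only 13, 14 and 13 UMIs. Between 28 and 50 cell barcodes were shared by each pair of libraries, at most 0.403% of the cells of either. Red cells differed between the libraries. Erythroid-like cells numbered 1, 36 and 97, and the haemoglobin gene Hbb-bs stood at 5.75, 378 and 400 CPM over all kept cells. Classes of cells were named from marker genes and are written FB-like (fibroblast), EPI-like (epithelial) and so on. FB-like cells numbered 3381, 5088 and 5001 in CON, UV and Rux and detected all 6 fibroblast markers, and every class used below detected at least 3 markers of its own name.

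Part of the iron control of these genes lies in the transcripts themselves. Iron regulatory proteins bind a short stem-loop, the iron responsive element, which blocks translation when it lies before the coding sequence and protects the transcript from decay when it lies after it. A search of the longest coding transcript of each of 21901 genes in GENCODE M21 (GRCm38), for a bulged C, a stem of 5 paired bases and a CAGTGN loop, found the form in an untranslated region of 138 genes, or 0.630%. Of the 10 genes followed here, 4 held it, and Tfrc was the only gene searched with more than 1 in its transcript. The sites are shown because they mark the members on which iron regulatory proteins are known to act, and the form was not found in the other 6, Hmox1 among them. The loop is in capitals, and each sequence is written 5′ to 3′ on the strand of its gene.
Fth1, 5′ UTR, chr19:9982731-9982760, plus strand: tttcctgcttcaaCAGTGCttgaacggaac
Ftl1, 5′ UTR, chr7:45459779-45459808, minus strand: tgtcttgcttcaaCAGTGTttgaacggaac
Slc40a1, 5′ UTR, chr1:45925465-45925494, minus strand: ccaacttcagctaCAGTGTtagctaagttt
Tfrc, 3′ UTR, site 1, chr16:32631218-32631247, plus strand: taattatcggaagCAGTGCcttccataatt
Tfrc, 3′ UTR, site 2, chr16:32631597-32631626, plus strand: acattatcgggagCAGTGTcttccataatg
Tfrc, 3′ UTR, site 3, chr16:32631662-32631691, plus strand: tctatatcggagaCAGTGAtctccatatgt
Tfrc, 3′ UTR, site 4, chr16:32631709-32631738, plus strand: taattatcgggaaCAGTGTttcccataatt

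The counts below measure transcripts, so a control that acts on translation, as at Fth1, Ftl1 and Slc40a1, is not visible in them, whereas one that acts on decay, as at Tfrc, would be. Promoter windows from RefSeq (GRCm38.p6, 250 bases before to 50 after a start) were matched for 7 of the 10 genes, in 12 windows, and those of Hmox1, Slc40a1 and Slc48a1 were not searched here. The core of the antioxidant response element, TGACNNNGC on either strand, was present in a window of Blvra and in none of the others searched, while 12.4% of all 32851 windows held it. The AP-1 form TGANTCA was in none of the 12, beside 7.81% of all windows.

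Summed UMIs of a gene in a class of 1 library, divided by all UMIs of that class, gave its CPM. Since a 3′ UMI marks a transcript end, CPM was not scaled by transcript length. A log2 ratio of CPM was formed where both libraries held at least 50 cells of the class, and a gene was counted when it averaged at least 10 CPM with at least 50 UMIs in both libraries together. A difference of at least 2-fold, a log2 ratio of 1 in size, was taken as the mark of size. Brackets hold exact 95% intervals of counting error, which take each UMI as independent. They contain neither the spread between cells nor the spread between mice, so they are narrower than the full uncertainty. Each condition had 1 library, so nothing here was checked against replicates and no p-value was computed.

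Hmox1 (ENSMUSG00000005413, chr8:75093621-75100589, plus strand) was the member whose level differed most between the libraries. In FB-like cells it stood at 53.2 CPM in CON [50.4, 56.3], 438 in UV [431, 444] and 111 in Rux [108, 114]. The log2 ratio was 3.04 for UV over CON [2.96, 3.12] and −1.98 for Rux over UV [−2.02, −1.94], so the Rux level lay far below UV and still above CON, at 1.06 [0.97, 1.15]. Among the 8396 genes counted in FB-like cells it had the 4th highest ratio of UV over CON, and among 8162 it had the 10th lowest of Rux over UV. It was the only 1 of the 8 counted members past 2-fold in either comparison, where 4.37% of all genes counted were past 2-fold in UV over CON and 2.32% in Rux over UV. For Rux over CON it was again 1 of 8, beside 5.67% of all genes.

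Endothelium showed the same order with a return closer to the CON level. Lymphatic endothelial (LEC-like) cells carried 60.6, 505 and 68.7 CPM of Hmox1 in CON, UV and Rux, with log2 ratios of 3.06 [2.90, 3.22] for UV over CON and −2.87 [−3.12, −2.65] for Rux over UV. Vascular endothelial (VEC-like) cells carried 73.3, 332 and 71.4 CPM, with ratios of 2.17 [1.96, 2.41] and −2.21 [−2.53, −1.92]. For both classes the interval of Rux over CON held 0, at 0.18 [−0.10, 0.45] and −0.03 [−0.40, 0.32]. Haemoglobin transcripts were likewise highest in UV in VEC-like cells, where Hbb-bs stood at 16.8, 628 and 104 CPM. LEC-like cells had 0.65, 22.6 and 17.1 CPM of Hbb-bs and 0.48, 8.95 and 13.2 CPM of Hba-a1. In LEC-like cells the intervals of Rux over UV held 0 for both. The part of blood RNA in these differences was not tested. In both classes Hmox1 was the only member past 2-fold in these contrasts, of 7 and 8 counted in LEC-like cells (all genes 2.58% and 2.52%) and of 8 and 8 in VEC-like cells (3.59% and 3.38%).

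Pericyte-like (PCY-like) cells had 37.7, 145 and 10.8 CPM, the last from 10 UMIs in 115 cells. Their ratio of Rux over CON was −1.75 [−2.96, −0.80], and −0.35 when doublets were left in, so that a level below CON rested on that filter. Their ratios of UV over CON, 1.94 [1.49, 2.43], and of Rux over UV, −3.69 [−4.83, −2.85], stayed past 2-fold without it, the latter beside 3.94% of all genes. Of their 8 counted members, 2 were past 2-fold in UV over CON, Hmox1 and the lower Blvra, beside 4.08% of all genes.

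The epithelium held little Hmox1. EPI-like cells had 4.63, 13.6 and 9.33 CPM, and basal keratinocyte-like (KB-like) cells had 6.54, 16.5 and 10.5 CPM. The UV level was the highest in both, and the KB-like ratio of UV over CON was 1.33 [0.77, 1.90], with 10.5% of all genes past 2-fold in that class. Free RNA with the mean make-up of FB-like cells would supply up to 4.36 CPM of the 13.6 in EPI-like cells of UV. That estimate was read from collagen and other fibroblast markers there. In LYM-like (lymphocyte) cells, which gave 6, 27 and 13 Hmox1 UMIs, it was 7.06 of the 17.5 CPM in UV. In UV, the same estimate was 8.78 of 332 CPM in VEC-like and 6.41 of 505 CPM in LEC-like cells. Free RNA from FB-like cells richer in Hmox1, or from another class, could supply more, and its part was not tested. Melanocyte-like cells had 58.9 CPM in CON (160 cells), 115 in UV (66 cells) and 45.0 in Rux (36 cells).

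Over the first-level classes the directions were uniform. Hmox1 was counted in 6 classes for UV over CON and was higher in UV in all 6, by at least 2-fold in 4 of them. For Rux over UV it was counted in 7 classes and was lower in Rux in all 7, by at least 2-fold in 6. Rux over CON was mixed, with 2 of 6 classes higher and 4 lower.

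**Figure D1:**
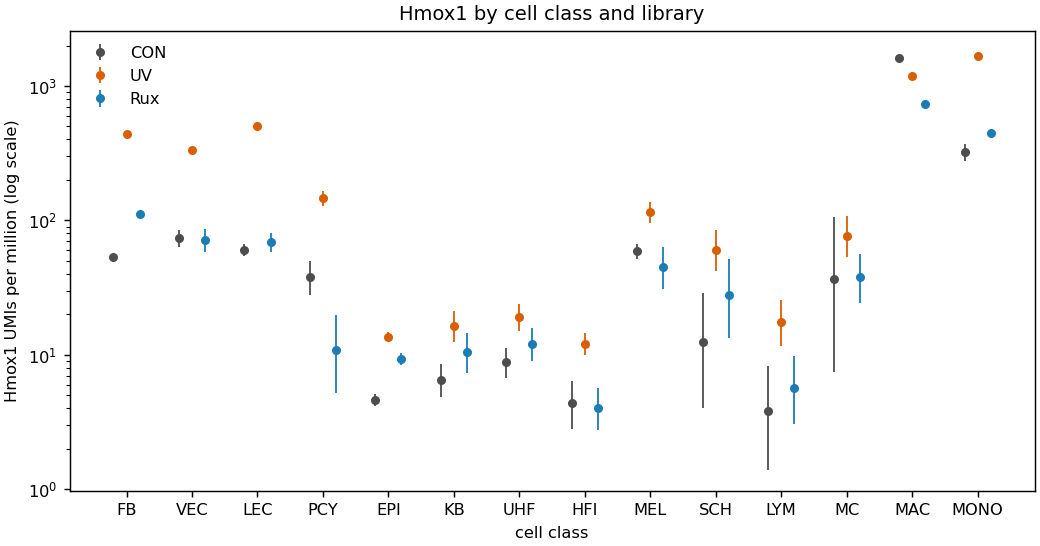
Hmox1 in CPM, on a log axis, for a chosen set of cell classes, with bars for the exact 95% counting interval. A class has 1 point for each library (CON, UV, Rux) that holds at least 36 of its cells. Some classes of that size, such as neutrophil-like cells, are not drawn. The UV point lies above CON in each class shown except MAC-like cells, where CON is highest at 1617 CPM against 1184 in UV and 737 in Rux.

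The share of cells carrying Hmox1 moved with its level. When every cell was thinned to 2000 UMIs and shallower cells were left out (147, 244 and 132), 9.03% of FB-like cells in CON [8.06, 10.1], 37.2% in UV [35.8, 38.6] and 15.01% in Rux [14.0, 16.0] held a Hmox1 UMI. Without thinning the shares were 21.2%, 57.8% and 39.8%, at median depths of 6164, 7392 and 9981 UMIs. In LYM-like cells, as a class that should lack most of it, the thinned shares were 0.820%, 2.61% and 1.16%, at median depths of 5427, 5417 and 5607 UMIs. The transcripts were unevenly spread among FB-like cells. The tenth of cells with most Hmox1 held 67.1% of its UMIs in CON, 51.1% in UV and 60.9% in Rux, and the highest cell held 25, 103 and 79 UMIs. Such a share also rises where a gene is found in few cells. For Hmox2 in CON it was 96.0%, with at most 4 UMIs in a cell. The order of the libraries was therefore not read as a difference in spread.

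FB-like cells were not of 1 kind, and the kinds differed between libraries. Clustering them again with the 10 genes left out of the variable genes gave 13 subclusters. A subcluster led by Gadd45g and Socs3 held 1126 cells of CON, 372 of UV and 17 of Rux. Another led by Dtna held 41, 902 and 364, and the subcluster led by the acute-phase genes Saa3, Hp and Lcn2 held 8, 44 and 918. Hmox1 differed as much among subclusters of UV as between libraries, from 51.9 CPM in the Pde4c-led subcluster to 1124 in the Dtna-led subcluster, which alone gave 9444 of the 17262 FB-like Hmox1 UMIs in UV.

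Within subclusters the direction was the same as over all FB-like cells. Of the 9 subclusters with at least 50 cells in CON and UV, all 9 had more Hmox1 in UV, with log2 ratios from 1.03 to 2.55. The Thbs4-led subcluster had the highest ratio, from 76.8 CPM in CON to 452 in UV and 172 in Rux. Of 11 subclusters compared between UV and Rux, all 11 were lower in Rux, from −0.20 to −2.16, and in 10 the interval lay below 0. The exception was the Pde4c-led subcluster, with 51.9 and 45.3 CPM. In the Dtna-led subcluster UV and Rux stood at 1124 and 305 CPM, a ratio of −1.88 [−1.97, −1.80].

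Weighting the subclusters by their shares in CON gave 56.8, 204 and 82.6 CPM, or log2 ratios of 1.84, −1.30 and 0.54 for UV over CON, Rux over UV and Rux over CON. The size of the difference therefore moved with the mix of FB-like cells, and the last ratio no longer reached 2-fold. That weighting rests in Rux on the 17 cells of the Gadd45g-led subcluster. Over all FB-like cells haemoglobin differed too, with Hba-a1 at 13.9, 13.1 and 37.0 CPM and Hbb-bs at 18.3, 33.6 and 54.6 CPM. Both were highest in Rux, where Hmox1 was lower than in UV. Within subclusters the relation went both ways. In the Dtna-led subcluster Hbb-bs stood at 18.3 CPM in UV and 195 in Rux, against the order of Hmox1, whereas it was highest in UV, as Hmox1 was, in the Thbs1-led subcluster, at 2.05, 89.3 and 18.3 CPM, and in the Csf2rb2-led subcluster, at 1.65, 33.0 and 13.1 CPM. Erythroid-like cells themselves gave 3 Hmox1 UMIs in UV and 2 in Rux. The part of blood RNA in the Hmox1 levels was not tested.

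**Figure D2:**
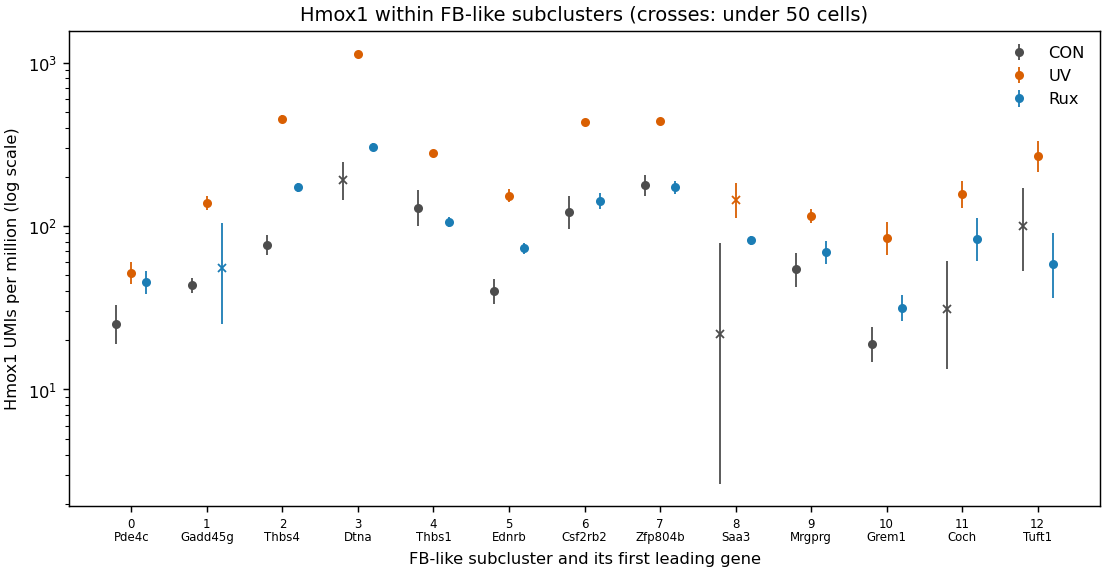
Hmox1 in CPM, on a log axis, in the FB-like subclusters of CON, UV and Rux, each named by its first leading gene, with bars for the exact 95% counting interval and crosses for points under 50 cells. UV is the highest library in each subcluster with at least 50 cells in all 3 libraries, and the Dtna-led subcluster of UV reaches 1124 CPM.

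Myeloid (MYE-like) cells held the most Hmox1, and here the macrophages went the other way. Macrophage-like (MAC-like) cells numbered 154, 117 and 188 and carried 1617, 1184 and 737 CPM, with log2 ratios of −0.45 [−0.58, −0.32] for UV over CON and −0.68 [−0.82, −0.55] for Rux over UV. Monocyte-like (MONO-like) cells, 68, 68 and 200 in number, carried 321, 1671 and 448 CPM, with ratios of 2.38 [2.14, 2.63] and −1.90 [−2.04, −1.76]. In cells led by Cd207, a lectin of Langerhans cells, Hmox1 gave 6 UMIs from 42 cells in CON, 76 from 38 in UV and 6 from 53 in Rux.

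The MAC-like order moved with the mix of macrophages. The Lyve1-led subcluster, with 84, 33 and 20 cells, carried 2747, 2526 and 2093 CPM of Hmox1, and the Retnla-led subcluster of 66, 44 and 53 cells carried 314, 844 and 235 CPM. Held at the CON mix, MAC-like cells had 1636, 1768 and 1265 CPM, with UV above CON. The CON mix leaves out the subcluster led by Arg1 and Spp1, which held 0 cells of CON, 19 of UV and 62 of Rux. Its weight for the Il10-led subcluster rests on 4 cells of CON. Under that weighting none of the 6 member differences past 2-fold in MAC-like cells remained past it. The same weighting brought other members past 2-fold in UV over CON. Blvrb then stood at 166, 383 and 232 CPM in CON, UV and Rux, and Blvra at 30.2, 63.5 and 50.9 CPM. Most MYE-like subclusters held under 50 cells in a library, so these levels rest on few cells.

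**Figure D3:**
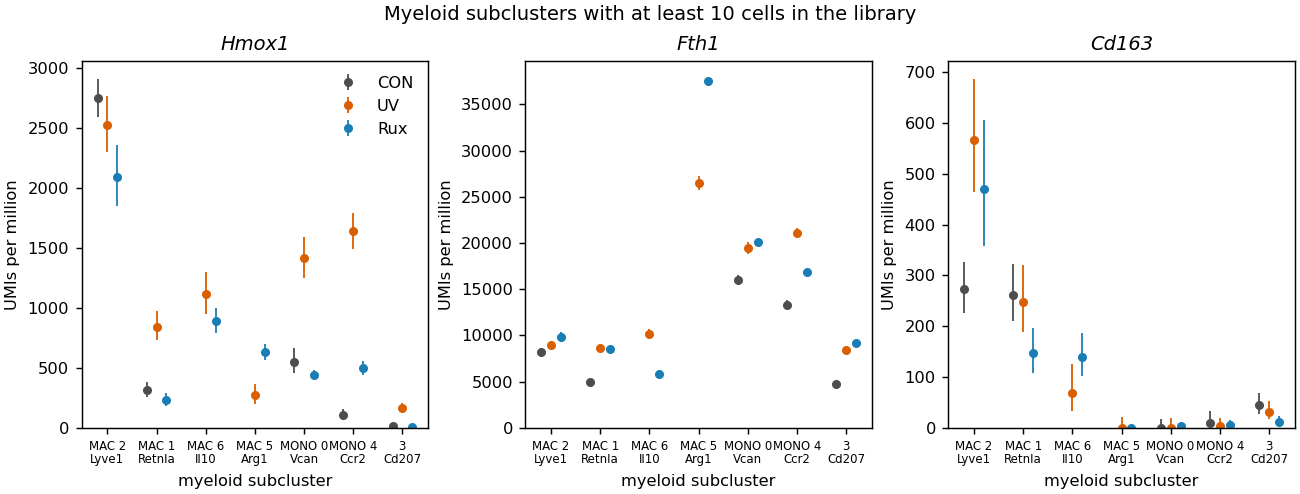
Hmox1, Fth1 and Cd163 in CPM, on linear axes from 0, in 7 subclusters of MYE-like cells with their class and leading gene, with 1 point per library that holds at least 10 cells and bars for the exact 95% counting interval. Among the subclusters shown, Hmox1 is highest in the Lyve1-led one of each library, at 2747, 2526 and 2093 CPM in CON, UV and Rux.

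Hmox2 (ENSMUSG00000004070, chr16:4726361-4766742, plus strand), the constitutive oxygenase, differed little over whole classes. FB-like cells had 16.9, 18.2 and 16.9 CPM, with intervals of the log2 ratio that held 0 in all 3 contrasts (−0.07 to 0.29, −0.25 to 0.03 and −0.17 to 0.17). At the CON mix of subclusters they had 16.4, 18.9 and 29.5 CPM, where the Rux value rests on 8 UMIs in the 17 cells of the Gadd45g-led subcluster. In the Mrgprg-led subcluster Hmox2 stood at 16.1, 50.4 and 30.5 CPM, a ratio of UV over CON of 1.62 [1.00, 2.36], the 1 subcluster past 2-fold of 7 counted. VEC-like cells stood higher, at 47.7, 53.3 and 53.4 CPM. Over the first-level classes no interval lay wholly above or below 0, in 8 classes for UV over CON, 7 for Rux over UV and 6 for Rux over CON, and the ratios ran from −0.17 to 0.44. These classes hold few Hmox2 UMIs outside FB-like and EPI-like cells, so small differences were not detectable at this depth. MAC-like cells had 48.0, 51.6 and 25.0 CPM from 34 to 38 UMIs a library, and their ratio of Rux over UV was −1.05 [−1.76, −0.34].

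Among the biliverdin reductases, Blvra stayed within 2-fold in most classes. Blvra (ENSMUSG00000001999, chr2:127070665-127097084, plus strand) stood at 14.4, 13.1 and 11.6 CPM in FB-like cells and at 20.8, 22.2 and 22.0 CPM in EPI-like cells. Its 1 difference past 2-fold between UV and CON was in PCY-like cells, with 40.9 and 19.4 CPM, a log2 ratio of −1.07 [−1.76, −0.41] from 51 and 32 UMIs, which fell short of 2-fold with equal weight per cell and under both other cell filters (−0.91 to −0.97). In Rux these cells had 34.5 CPM.

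Blvrb (ENSMUSG00000040466, chr7:27447978-27466144, plus strand) was the more abundant reductase in FB-like cells and was highest in UV there, as Hmox1 was, by a smaller ratio. Its levels were 107, 139 and 104 CPM, with log2 ratios of 0.37 [0.30, 0.44] and −0.41 [−0.46, −0.36], both far from 2-fold. Within subclusters the order was not uniform, with 5 of 9 higher in UV than in CON and 7 of 10 lower in Rux than in UV, and the CON mix gave 117, 124 and 108 CPM. Blvrb is also abundant in red cells, and the erythroid-like cells had the highest level of any class, 385 CPM in UV and 191 in Rux, from 40 and 27 UMIs.

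In immune cells Blvrb went in opposite directions. MONO-like cells had 58.5, 124 and 72.8 CPM, a ratio of UV over CON of 1.07 [0.45, 1.75], or 0.94 under the loose cell filter (up to 20% mitochondrial UMIs), where 5.95% of all genes were past 2-fold. LYM-like cells had 31.6, 11.7 and 9.22 CPM, from 50, 18 and 21 UMIs, and ratios of −1.41 [−2.30, −0.64] for UV over CON and −1.76 [−2.59, −1.02] for Rux over CON. With doublets left in, the former was −0.86 and no longer past 2-fold. These LYM-like differences stood beside 7.41% and 8.8% of all genes past 2-fold.

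Ferritin transcripts were the most abundant of the set and differed between cell classes far more than between libraries. Fth1 (ENSMUSG00000024661, chr19:9980598-9985098, plus strand), the heavy chain that oxidises iron for storage, stood at 916, 896 and 841 CPM in EPI-like cells, 4878, 5753 and 6325 in FB-like cells and 8592, 10067 and 9756 in LEC-like cells. Neutrophil-like cells held 41638, 52789 and 46955 CPM, from 50, 21 and 221 cells, the highest level of any member in any class. In FB-like cells the log2 ratios were 0.24 for UV over CON and 0.14 for Rux over UV. Most subclusters went against the former, with 7 of 9 lower in UV than in CON. Most went with the latter, with 8 of 11 higher in Rux than in UV. At the CON mix Fth1 stood at 5133, 4873 and 5711 CPM in CON, UV and Rux. The Saa3-led subcluster, almost all of it from Rux, had 9252 CPM there.

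Fth1 was also higher in both irradiated libraries in MAC-like and Schwann-like cells, among other classes. MAC-like cells stood at 6830 CPM in CON, 13204 in UV and 20517 in Rux, a log2 ratio of 1.59 [1.54, 1.63] for Rux over CON. Schwann-like cells, the glia of skin nerves, had 8431, 12792 and 17291 CPM and a ratio of 1.04 [0.98, 1.10], or 0.97 under the loose cell filter, beside 5.52% of all genes past 2-fold. For MAC-like cells the CON mix gave 6861, 8876 and 9166 CPM and a ratio of 0.42. An Arg1- and Spp1-led subcluster that held 0 cells of CON, 19 of UV and 62 of Rux had the highest levels, 26458 and 37519 CPM, while the Lyve1-led subcluster stood at 8256, 9013 and 9798. LYM-like cells went the other way, with 9485, 5788 and 5785 CPM, a ratio of −0.71 [−0.75, −0.68] for Rux over CON.

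Ftl1 (ENSMUSG00000050708, chr7:45457944-45459884, minus strand), the light chain that helps form the iron core, had 1878, 2244 and 1993 CPM in FB-like cells and 4323, 5398 and 7548 in MAC-like cells. At the CON mix Ftl1 stood at 1929, 1823 and 2047 CPM in FB-like and 4330, 5446 and 5222 in MAC-like cells. Within FB-like subclusters it was lower in UV than in CON in 6 of 9, and higher in Rux than in UV in 9 of 11. It passed 2-fold in none of the 10 first-level classes compared between UV and CON or in the 9 compared between Rux and UV. Reads of a copy, Ftl1-ps1, were listed apart at 18.1, 21.7 and 18.4 CPM in FB-like cells, and reads of near-identical copies may be split or lost in counting, so the Ftl1 level is uncertain to that extent. Across 33 pairs of FB-like subcluster and library, which share libraries and depth, Fth1 and Ftl1 had a Pearson r of 0.89 and Blvrb and Fth1 of 0.77, on log2(CPM + 1).

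Iron export was scarcely visible. Slc40a1 (ENSMUSG00000025993, chr1:45908068-45926523, minus strand) encodes ferroportin, the known exporter of iron from cells, and was below the minimum in every first-level class. FB-like cells had 114, 138 and 278 UMIs, or 4.80, 3.50 and 4.97 CPM. Most of these UMIs, 85, 96 and 203, came from the Ednrb- and Acta2-led subcluster, at 26.6, 31.3 and 20.3 CPM. In that subcluster the ratio of UV over CON was 0.23, and that of Rux over UV was −0.63.

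Macrophages, where ferroportin returns iron from red cells, showed almost none. MYE-like cells gave 4 Slc40a1 UMIs in CON, 0 in UV and 8 in Rux, all in MAC-like cells. The 0 in UV allows up to 1.67 CPM over MYE-like cells and up to 4.08 CPM over MAC-like cells. With counts of this size no difference between the libraries was detectable. In the upper hair follicle (UHF-like cells) Slc40a1 stood at 8.03, 14.4 and 18.3 CPM, and the ratio of Rux over CON was 1.19 [0.67, 1.72], beside 4.14% of all genes. Over 8 other settings that ratio ran from 0.88 to 1.42, so it was not past 2-fold in all of them. Neutrophil-like cells had 2, 10 and 22 UMIs, and the UV value, 239 CPM, came from 21 cells.

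The receptor for iron uptake was highest in the epithelium in UV and Rux, and in LYM-like cells in CON. Tfrc (ENSMUSG00000022797, chr16:32608920-32632794, plus strand), known to be high in dividing cells, stood at 47.3, 76.8 and 73.2 CPM in EPI-like cells, higher in both irradiated libraries at log2 ratios of 0.70 [0.64, 0.77] and 0.63 [0.56, 0.70] over CON. Inner sheath and hair shaft (HFI-like) cells had 53.4, 87.2 and 91.4 CPM. The follicle was not uniform, since UHF-like cells had 41.3, 26.9 and 32.5 CPM, lower in UV than in CON at −0.61 [−0.95, −0.30].

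In fibroblasts and immune cells Tfrc was lower in Rux than in CON. FB-like cells had 13.7, 14.7 and 7.96 CPM, a ratio of Rux over UV of −0.88 [−1.07, −0.70], and of the 5 subclusters counted all 5 were lower in Rux. At the CON mix FB-like cells had 13.8, 10.7 and 9.82 CPM, and the ratio of Rux over UV was only −0.13. LYM-like cells had 77.1, 46.7 and 36.9 CPM and a ratio of Rux over CON of −1.06 [−1.48, −0.65], which lay between −0.80 and −0.98 with equal weight per cell, another scaling or doublets left in. MYE-like cells had 27.5, 22.9 and 11.4 CPM, from 50, 41 and 46 UMIs, and ratios of −1.01 [−1.64, −0.36] for Rux over UV and −1.27 [−1.88, −0.66] for Rux over CON. The former lay between −0.77 and −0.95 with another scaling, under the strict cell filter or with doublets left in. MAC-like cells at the CON mix had 38.2, 55.9 and 24.1 CPM of Tfrc. All genes past 2-fold in MYE-like cells amounted to 5.43% and 11.8% in these contrasts.

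Slc48a1 (ENSMUSG00000081534, chr15:97778520-97792692, plus strand), also called HRG1, moves haem out of endosomes and lysosomes. In FB-like cells it was level, at 29.5, 28.6 and 29.6 CPM, with intervals of the log2 ratio from −0.18 to 0.09, −0.06 to 0.16 and −0.12 to 0.13. VEC-like cells had 15.3, 27.9 and 31.0 CPM, and their ratio of Rux over CON was 1.02 [0.37, 1.68], the 1 of 8 counted members past 2-fold beside 5.98% of all genes. It fell short of 2-fold with equal weight per cell, doublets left in or a resolution of 0.8 (0.88 to 0.96). MONO-like cells had 11.3, 59.3 and 25.0 CPM, from 6, 31 and 47 UMIs, and a ratio of Rux over UV of −1.25 [−1.93, −0.54], beside 5.5% of all genes past 2-fold there. Erythroid-like cells had the highest levels, 86.7 and 92.0 CPM in UV and Rux, from 9 and 13 UMIs.

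Cd163 (ENSMUSG00000008845, chr6:124304656-124330527, plus strand) takes up haemoglobin bound to haptoglobin and is a macrophage gene. It was counted only in MYE-like cells among the first-level classes, and FB-like cells gave 5, 3 and 6 UMIs. MAC-like cells had 261, 234 and 112 CPM, with log2 ratios of −0.16 [−0.46, 0.14] for UV over CON, −1.06 [−1.38, −0.73] for Rux over UV and −1.22 [−1.53, −0.91] for Rux over CON. Held at the CON mix the order was different, 261, 418 and 323 CPM, and the ratio of Rux over CON turned to 0.31. In the Lyve1-led subcluster Cd163 stood at 273, 567 and 470 CPM, higher in both irradiated libraries, and the Arg1- and Spp1-led subcluster of UV and Rux held 0 UMIs of it.

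Over MAC-like cells 0 of 9 counted members were past 2-fold in UV over CON, where 7.36% of all genes were. At the CON mix Blvra and Blvrb were past 2-fold in that contrast. In Rux over UV 2 of 8 were, Hmox2 and Cd163, beside 7.27%. Hmox2 fell short of 2-fold under both other cell filters, with doublets left in and with the members among the variable genes (−0.67 to −0.94), and Cd163 with equal weight per cell (−0.60) and under the strict cell filter (−0.77). In Rux over CON 4 of 9 were, the higher Fth1 and the lower Hmox1, Tfrc and Cd163, beside 17.3% of all genes. The mix of macrophages moved with these counts, as given above, and its part in each member was not tested beyond that weighting.

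**Figure D4:**
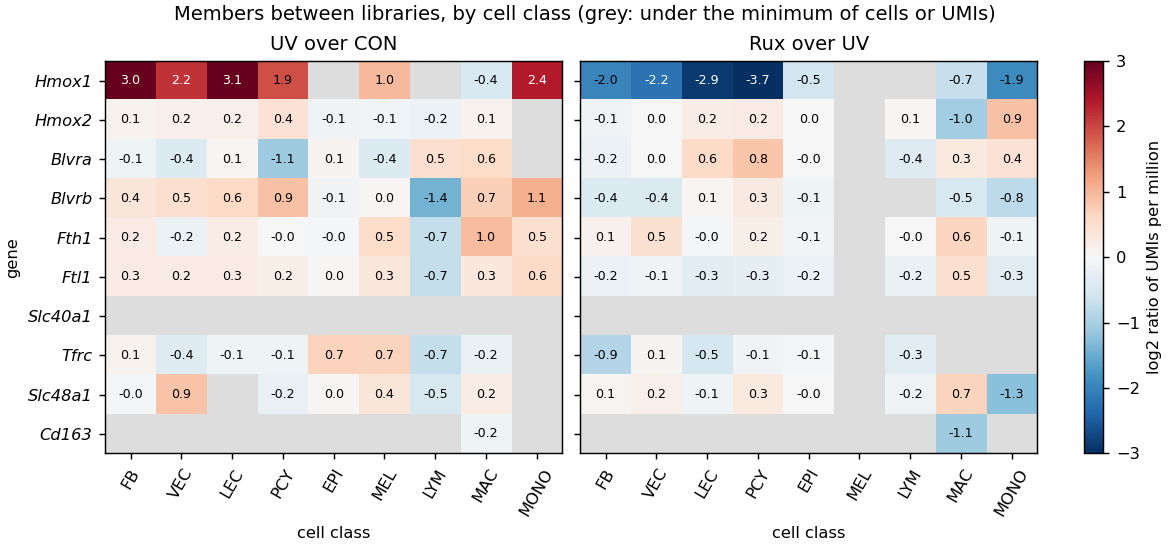
Log2 ratios of the 10 members for UV over CON and Rux over UV in 9 cell classes, with the value written in each cell, colours that stop at 3 in size and grey where a class or gene was under the minimum of cells or UMIs. Hmox1 is the row with the darkest cells, from 3.06 in LEC-like cells of UV over CON to −3.69 in PCY-like cells of Rux over UV, while Hmox2, Ftl1 and Slc48a1 stay mostly pale.

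A wider list of 63 genes placed the members beside the rest of haem and iron metabolism in FB-like cells. It covered haem synthesis, haem transport and scavenging, iron uptake, export, storage, regulators, mitochondrial iron and 7 targets of NRF2, the transcription factor that also induces Hmox1. For UV over CON 45 were counted, of which 5 were at least 2-fold higher and 0 lower, beside 4.37% of all genes past 2-fold, and their median log2 ratio was 0.09, against −0.11 over all genes. For Rux over UV 43 were counted, with 2 higher and 3 lower, beside 2.32% of all genes, and a median of −0.18, against 0.03 over all genes.

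The 5 higher in UV came from 4 sections of the list. Hp, which encodes haptoglobin, stood at 3.83, 24.04 and 136 CPM, and Lcn2, whose product lipocalin binds bacterial iron carriers, at 5.77, 23.5 and 66.0 CPM. Bmp6, the signal for hepcidin in liver, stood at 7.41, 22.3 and 15.2 CPM, a ratio of UV over CON of 1.59, or 0.55 at the CON mix and so under 2-fold. Gclm and Srxn1, which serve glutathione synthesis and the repair of oxidised peroxiredoxins, were the other two, at 53.8 and 73.8 CPM in CON against 133 and 182 in UV.

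Hp and Lcn2 differed from Hmox1 in Rux, where both were higher still. Their log2 ratios of Rux over UV were 2.504 and 1.49, but the Saa3-led subcluster gave 84.9% of the Hp and 83.1% of the Lcn2 UMIs of FB-like cells in Rux. Without it the ratios were 0.37 and −0.69. Leaving the same subcluster out moved the Hmox1 ratio of Rux over UV from −1.98 to −1.88.

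By their medians the NRF2 targets were higher in UV than in CON or Rux, as Hmox1 was, by smaller ratios. Of 7, 6 were counted, with median log2 ratios of 0.70 for UV over CON, −0.91 for Rux over UV and −0.21 for Rux over CON. Txnrd1, thioredoxin reductase, stood at 403, 685 and 329 CPM, and Gclm at 53.8, 133 and 56.9 CPM, so that both were highest in UV. Slc7a11, which imports cystine, had 24.1, 32.0 and 10.9 CPM, and its ratio of Rux over CON was −1.15 [−1.32, −0.98]. Prdx1 was the exception, at −0.05 for UV over CON. With the subclusters held at the CON mix the UV over CON ratios were 0.55 for Gclm, 0.17 for Srxn1, 0.14 for Txnrd1, −0.04 for Gclc, −0.18 for Prdx1 and −0.37 for Slc7a11, which was 0.41 without that weighting. The Hmox1 ratio at this mix was 1.84.

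Haem synthesis and the regulators of iron held no gene past 2-fold between UV and CON. The genes named here were chosen after their values were seen. In haem synthesis 5 of 9 genes were counted for UV over CON with 0 past 2-fold, a count too small to read against the 4.37% of all genes, among them Alas1, the first enzyme, at 31.6, 37.2 and 34.5 CPM. The iron regulatory proteins, encoded by Aco1 and Ireb2, stood at 27.8, 24.9 and 21.9 CPM and at 34.6, 37.0 and 38.1 CPM. Ncoa4, which carries ferritin to the lysosome, had 20.4, 19.3 and 16.9 CPM.

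In other classes most counted genes of the wider list also lay within 2-fold between UV and CON. In EPI-like cells 39 of its genes were counted, with Srxn1 alone at least 2-fold higher and 0 lower, beside 2.39% of all genes past 2-fold. In VEC-like cells 38 were counted with 2 higher and 2 lower, beside 3.59% of all genes, and in MYE-like cells 30 with 1 higher and 1 lower, beside 4.3% of all genes. For Rux over UV, MYE-like cells had 2 higher and 5 lower of 35 counted, beside 5.43% of all genes. VEC-like cells had 2 higher and 3 lower of 38, beside 3.38%, and EPI-like cells 0 of 40 past 2-fold, beside 0.977%.

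**Figure D5:**
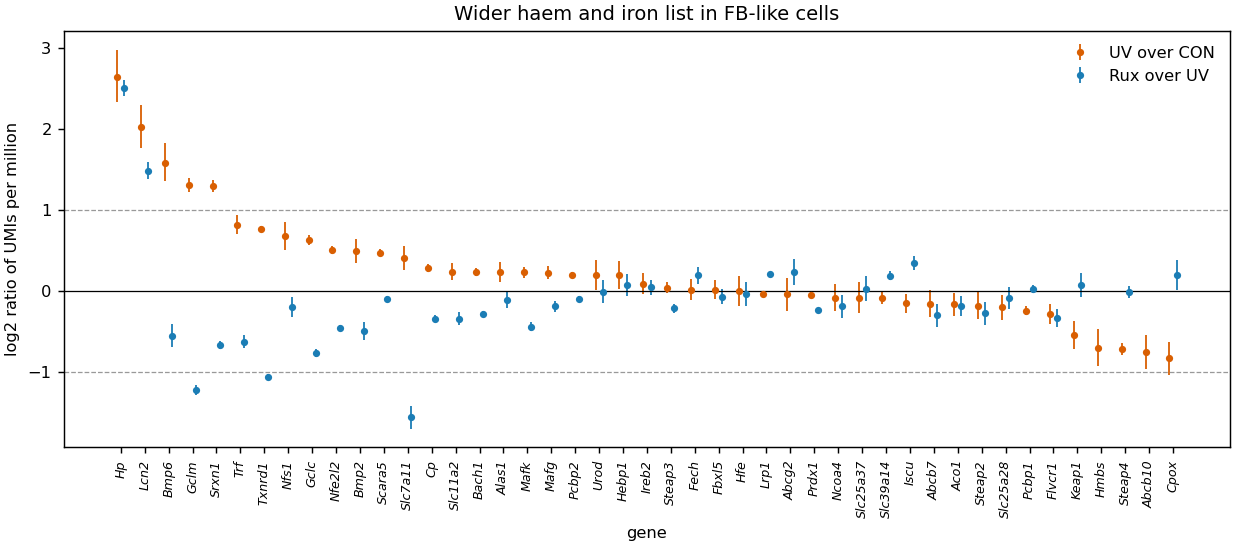
Log2 ratios of the counted genes of the wider haem and iron list in FB-like cells, for UV over CON and Rux over UV, with dashed lines at −1 and 1. Most genes lie between the lines, and Hp and Lcn2 lie past 1 in both contrasts while Gclm lies past 1 in the first and past −1 in the second.

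The pattern of Hmox1 was compared with 8372 other genes across 33 pairs of FB-like subcluster and library and with 9625 genes across 34 pairs of class and library, on log2(CPM + 1). The points share libraries and, for subclusters, neighbouring cells, so r is given as a description. In FB-like subclusters the most similar genes were Gclm (r = 0.85), Esd (0.80), Pcbp2 (0.75), Rheb (0.75) and Txnrd1 (0.73). Gclm and Txnrd1 are the NRF2 targets described above, and Pcbp2 encodes a chaperone of iron. Over classes they were Gm17749 (0.81), Unc93b1 (0.78) and Psap (0.78), the last a lysosomal protein of macrophages and other cells.

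For other members the nearest patterns were of different kinds, and those of Cd163 followed the cells that hold it. Cd163 lay with the macrophage genes Ms4a7 (0.96), Lyz1 (0.95) and C3ar1 (0.95), and Tfrc with Hist1h4d (0.83), Prpf31 (0.83) and C87436 (0.82), the first a replication-dependent histone. Blvrb was nearest to Psd3 (0.76), Ccl7 (0.71) and Grn (0.68), and Slc40a1 to Asprv1 (0.71), Hcar2 (0.70) and Arg2 (0.69). Slc40a1 was below the minimum in every first-level class, so its r values rest on low counts.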

How the data were processed

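Full-thickness dorsal skin was profiled with the 3′ v3.1 chemistry of 10x Genomics in 3 libraries, CON, UV and Rux, grouped by the treatment label. The authors deposited raw UMI counts per gene and cell barcode (13170, 12411 and 11287 barcodes with 165337289, 133972374 and 131570327 UMIs). The submitters' processing notes name Cell Ranger 6.1.2, Seurat 5.3.0 and mm10, whereas the headers of the deposited count matrices name cellranger 7.0.0. These versions can differ in whether intronic reads are counted, and which one made the counts was not settled.

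Cells were kept that had 200 genes or more and a mitochondrial share of UMIs up to 10%. Doublets were scored with Scrublet (scanpy 1.11.5) and the highest scores were removed at 0.8% per 1000 cells, 1269, 1128 and 923 cells. Clustering used Seurat 5.3.0 with 2000 variable genes, the 10 members left out, 30 components, a resolution of 1.5 and no batch correction, and was repeated within FB-like (20 components, resolution 0.5) and MYE-like cells (15 components, 0.8). Clusters were named from marker lists. Clusters led by hair-shaft keratins, immunoglobulin or adipocyte genes, a cluster of few UMIs per cell and clusters that matched no list stayed unnamed. The rules for hair-shaft keratins, immunoglobulin and adipocyte genes were chosen after the clusters were seen. UMIs were summed per class and library.

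Levels carry exact Poisson intervals, shares Clopper-Pearson intervals, and log2 ratios of CPM, with 0.5 UMI added, exact conditional binomial intervals, all at 95% and covering counting error only. A count of 0 was read as allowing up to 3 counts. The sums and ratios were tested on simulated data that held counting error only, without spread between cells or mice. With 1 library per condition no test across samples was made.

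The members and gene lists were chosen with earlier results of these data known. The genes named were the 10 members, genes of the wider list at least 2-fold apart in FB-like cells, its NRF2 targets, the 3 nearest in pattern to Hmox1, Blvrb, Slc40a1, Tfrc and Cd163 over classes, the 5 nearest to Hmox1 over FB-like subclusters, and markers that a name or a check of the libraries needs. Other cell filters, doublets left in, another resolution, scaling, cell weights and subcluster mixes were tried. Sequences came from GENCODE M21 on GRCm38 and RefSeq promoter windows on GRCm38.p6. Python 3.11.15, scipy 1.17.1 and R 4.3.3 were used.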

Additional observations from a re-analysis of the deposited data

Results flagged for a closer look

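Several members had ratios on opposite sides of 0 in different classes of the same pair of libraries, with counting intervals clear of 0. With 1 library per condition these differences between classes were not tested. For Hmox1, UV over CON was 3.06 on the log2 scale in LEC-like cells and −0.45 in MAC-like cells, and Rux over CON was 1.06 in FB-like cells and −1.75 in PCY-like cells. For Hmox2, Rux over UV was 0.87 in MONO-like and −1.05 in MAC-like cells. For Blvrb, UV over CON was 1.07 in MONO-like and −1.41 in LYM-like cells, and Rux over CON was 1.14 in PCY-like and −1.76 in LYM-like cells. The PCY-like ratio was 0.93, under 2-fold, with equal weight per cell, and 9.3% of all genes were past 2-fold in that comparison. For Fth1, Rux over CON was 1.59 in MAC-like and −0.71 in LYM-like cells. For Tfrc, Rux over CON was 0.63 in EPI-like and −1.22 in MAC-like cells. At the CON mix of MAC-like subclusters the MAC-like ratios of Fth1, Tfrc and Hmox2 kept their signs but were smaller, at 0.42, −0.67 and −0.71. The MAC-like Hmox1 ratio of UV over CON changed sign at that mix, with 1636 CPM in CON and 1768 in UV. For Slc48a1, Rux over UV was 0.66 in MAC-like and −1.25 in MONO-like cells. At the CON mix of MAC-like subclusters Slc48a1 stood at 31.3, 39.6 and 24.4 CPM in CON, UV and Rux. It was then lower in Rux than in UV, as in MONO-like cells.

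Hmox1 was also higher in UV in cells outside the named classes. In the unnamed cluster of few UMIs per cell it stood at 51.0 CPM in CON, 186 in UV and 69.0 in Rux, from 623, 599 and 475 cells. In cells removed by the gene and mitochondrial limits it stood at 22.9, 87.1 and 41.4 CPM, from 1124, 1052 and 1065 cells.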

How the results depend on the processing

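In FB-like cells the Hmox1 log2 ratio of UV over CON was 3.04 and became 3.15 with median of ratios scaling, 2.80 with equal weight per cell and 1.84 at the CON mix of subclusters. Rux over UV was −1.98 and became −1.81 with equal weight, −1.30 at the CON mix and −1.88 without the Saa3-led subcluster. Rux over CON was 1.06 and became 0.54 at the CON mix, under 2-fold, 0.99 with equal weight and 1.17 without the Saa3-led subcluster. Members past 2-fold for UV over CON numbered 1, and 2 without the minimum of CPM and UMIs. Genes of the wider list past 2-fold for UV over CON numbered 5, and 2 at the CON mix. For Rux over UV they numbered 5, against 3 with equal weight, 1 at the CON mix and 2 without the Saa3-led subcluster. Shares of FB-like cells with Hmox1 were 21.2%, 57.8% and 39.8% in CON, UV and Rux in unthinned cells, against 9.03%, 37.2% and 15.01%. Cd163 in MAC-like cells reversed for Rux over CON, from −1.22 to 0.31 at the CON mix of MAC-like subclusters. Over all settings and named classes, with Slc40a1 left out, 262 of 301 values past 2-fold remained past it. The 301 hold the same differences again for each setting, so they are not separate results. With equal weight per cell 28 of 37 differences remained, and at the CON mix of MAC-like subclusters 0 of 6 did. Differences that a setting newly brought past 2-fold are not in these counts. The median shift, 0.03, is over all 2437 values, past 2-fold or not. The subcluster mixes of MAC-like cells, the CON mix for the lists and the removal of the Saa3-led subcluster were chosen after seeing the data. No paired analysis was possible because each condition has 1 library and no replicate numbers. For the same reason no library could be left out. Depth limits Slc40a1 in MYE-like cells, with at most 8 UMIs a library, and Cd163 in FB-like cells, with at most 6.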
